A study of Mus musculus with 12 samples.

Results

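The simple epithelial keratins Krt7, Krt8, Krt18 and Krt19, the claudins Cldn3, Cldn4, Cldn6 and Cldn7, and the adhesion molecule Epcam were described in G2A and wild-type (WT) mouse fetal livers and fibroblasts. These 9 genes were found by symbol, 1 entry each, among 23235 entries measured in liver and 24421 entries measured in fibroblasts. G2A animals and cells carry the Rpt2G2A/G2A genotype, a homozygous knock-in in Psmc1, the gene of the proteasome ATPase Rpt2, which exchanges the glycine that bears the myristoyl lipid by which proteasomes attach to membranes. The labels give 4 groups of 3 samples: G2A livers at E12.5, WT livers at E12.5, immortalized G2A mouse embryonic fibroblasts (MEFs) and immortalized WT MEFs, all untreated. The livers came from 3 littermate pairs of WT and G2A embryos. The labels do not say which library belongs to which pair, nor whether the MEFs are separate cultures, clones or lines, so p-values measure only the spread between these samples. The third G2A MEF sample was not analysed here, which leaves 2 G2A and 3 WT libraries in MEFs and 3 and 3 in liver.

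As background, simple epithelia are single layers of cells whose intermediate filaments are built from pairs of a type II keratin (Krt7 or Krt8) and a type I keratin (Krt18 or Krt19). Fetal hepatoblasts, the precursors of hepatocytes and bile duct cells, contain Krt8 and Krt18, while Krt7 and Krt19 mark the bile duct lineage and many other simple epithelia, including mesothelium. Claudins are membrane proteins that seal the tight junctions between epithelial cells, and Epcam is a membrane glycoprotein of hepatoblasts and other epithelial progenitors that associates with Cldn7. Fibroblasts are not epithelial, so these genes are usually low there.

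Several of the genes are neighbours on the genome. In the annotation of NCBIM37 (the mm9 assembly to which the reads were aligned), Krt8 (chr15:101827142-101834773, minus strand) and Krt18 (chr15:101858647-101862457, plus strand) lie 23.9 kb apart and point away from each other. Cldn4 (chr5:135420996-135422804, minus strand) and Cldn3 (chr5:135462084-135463342, plus strand) are likewise divergent, 39.3 kb apart. Krt7 (chr15:101241474-101260744, plus strand) lies 566.4 kb from Krt8. The remaining genes are Krt19 (chr11:100002124-100009979, minus strand), Cldn7 (chr11:69778281-69781387, plus strand), Cldn6 (chr17:23816332-23819413, plus strand) and Epcam (chr17:88035319-88050446, plus strand). All 9 are protein coding.

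The promoters of the divergent pairs are shown because both partners of each pair were measured to lie above WT in every G2A liver. Each is the 250 bases before the annotated start, from RefSeq (GRCm38.p6), and each occurs exactly 1 time, letter for letter, in NCBIM37, whose coordinates are given. Capitals mark matches, on either strand, to GGGCGG (the GC box), CACCTG (the E-box bound by Snail and Zeb repressors) and TGANTCA (the AP-1 element). In order they lie at chr15:101834774-101835023 (minus strand), chr15:101858397-101858646 (plus strand), chr5:135422805-135423054 (minus strand) and chr5:135461834-135462083 (plus strand).
Krt8: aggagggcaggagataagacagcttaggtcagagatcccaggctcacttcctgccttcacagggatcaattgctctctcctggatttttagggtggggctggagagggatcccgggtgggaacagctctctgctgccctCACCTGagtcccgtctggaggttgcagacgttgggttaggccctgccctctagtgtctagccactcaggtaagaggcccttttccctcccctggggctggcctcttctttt
Krt18: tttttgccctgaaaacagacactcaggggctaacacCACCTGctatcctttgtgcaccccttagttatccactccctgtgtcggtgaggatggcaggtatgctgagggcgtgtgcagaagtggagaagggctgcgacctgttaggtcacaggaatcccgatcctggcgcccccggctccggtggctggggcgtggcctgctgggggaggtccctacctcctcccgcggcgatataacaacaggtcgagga
Cldn4: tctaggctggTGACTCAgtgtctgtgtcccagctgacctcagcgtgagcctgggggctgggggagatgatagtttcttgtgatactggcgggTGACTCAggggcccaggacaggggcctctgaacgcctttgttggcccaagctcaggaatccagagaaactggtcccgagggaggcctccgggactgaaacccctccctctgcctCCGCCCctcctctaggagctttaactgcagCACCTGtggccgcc
Cldn3: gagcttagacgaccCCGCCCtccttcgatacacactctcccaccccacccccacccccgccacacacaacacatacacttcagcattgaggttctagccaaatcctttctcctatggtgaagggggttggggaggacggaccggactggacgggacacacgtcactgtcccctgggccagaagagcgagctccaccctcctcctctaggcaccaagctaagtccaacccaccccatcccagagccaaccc

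A promoter was found for 8 of the 9 genes. CACCTG stood in those of Krt7, Krt8, Krt18, Cldn4, Cldn6, Cldn7 and Epcam and in 17.2% of 32851 promoters in the same collection, while TGANTCA stood in Cldn4 alone, 240 and 158 bases before the start, and in 6.75% of all promoters. GGGCGG stood in Krt7, Cldn3, Cldn4, Cldn6, Cldn7 and Epcam (32.7% of all). None of these promoters held AACCNGTT, the grainyhead-like element (1.79% of all), TATAAA (12.4%) or CCAAT (33.8%). No match overlapped another, and a match of letters does not show a bound site.

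The liver values are FPKM, which count fragments relative to transcript length and library size and can be compared between genes. Low values fell on whole multiples of 1 step per library, which puts the liver libraries at about 15500000 to 16100000 fragments (86.7% to 92.0% of low values lay within 0.2 of a whole step). The fewest fragments among the 9 genes, about 32, lay behind Cldn3 in WT liver 2, and no Krt18 value on fewer than about 1395. The MEF values are whole gene reads divided by 1 size factor per library, with 36415586 to 37695116 gene reads each. Between 60.5% and 64.5% of MEF counts from 1 to 50 were even, so reads may not be independent and floors here cover counting error only. Psmc1 averaged 152.3 ± 8.08 FPKM in G2A livers and 179.3 ± 1.90 in WT livers (SD, n = 3 each; log2 fold change -0.24, limma adjusted p = 0.114). In MEFs it averaged 10790 ± 180 normalized reads in 2 G2A libraries and 7489 ± 1056 in 3 WT libraries (0.54, adjusted p = 0.282), and a point change in its coding sequence is not visible in such values. The liver labels fit their markers: the 14 hepatoblast markers summed to between 10320 and 14910 FPKM in G2A livers and between 10760 and 13280 in WT livers. For these genes G2A liver 3 lay nearer the WT livers than its group did, so results are given with and without it.

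In WT liver the levels fell into steps. Krt18 averaged 63.8 ± 0.905 FPKM (SD, n = 3), above Krt8 at 52.6 ± 6.86, and the WT libraries of these genes did not overlap. The Krt8 level is limited by a second genomic copy, described below, so this order is uncertain. Epcam (11.6 ± 3.00), Krt7 (11.6 ± 1.95), Cldn6 (11.2 ± 3.90) and Krt19 (11.2 ± 1.88) came next and could not be ordered, since their WT ranges overlapped. Cldn7 followed at 5.67 ± 1.74 FPKM. Cldn4 (2.55 ± 0.829) and Cldn3 (2.39 ± 0.682) were lowest and overlapped each other.

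The first comparison set the 3 G2A livers against the 3 WT livers. All 9 genes reached their highest level in G2A liver 2 and their second highest in G2A liver 1. Hbb-y and Postn, markers of other cell types, showed this order too. The shares of all genes with this order, or with their lowest level in G2A liver 3, were not measured. Of the 9, 5 (Krt8, Krt18, Krt19, Cldn3 and Cldn4) were above every WT liver in all 3 G2A livers, against a background of 11.8% of the 12938 genes tested, while 4 (Krt7, Cldn6, Cldn7 and Epcam) had their lowest level of all 6 libraries in G2A liver 3. With all libraries, limma called 0 of the 9 genes at an adjusted p under 0.05, where the background was 0.0155% higher and 0.00773% lower in G2A. At an unadjusted p under 0.05 it passed the same 5 genes, all higher, against a background of 9.07% higher and 12.4% lower. The median log2 fold change of the 9 genes was 0.63, and over all genes tested it was 0.014. All 9 lay above 0, where 52.7% of all genes tested did. All 9 passed the filter on low values.

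**Figure D1:**
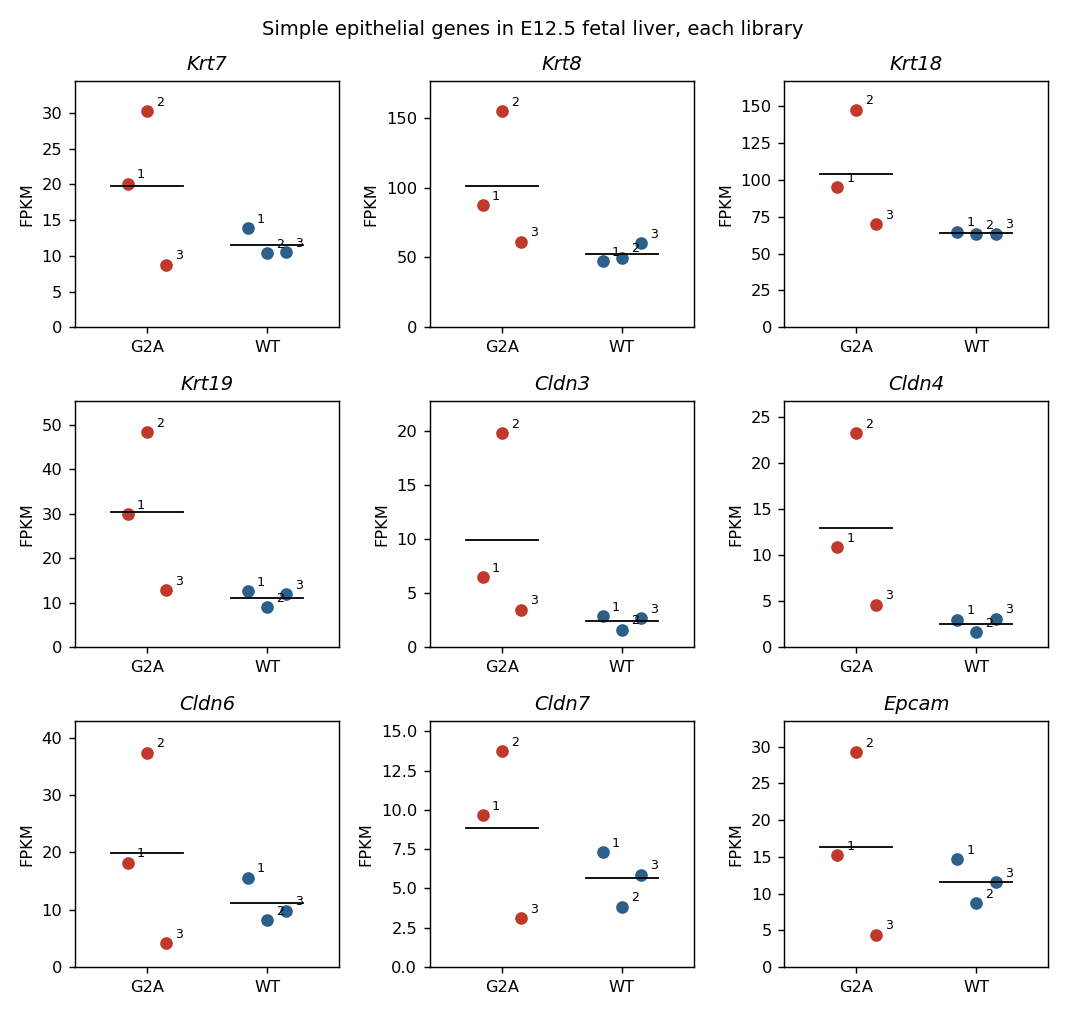
Level of each gene in FPKM (y axis, from 0) in the 3 G2A livers (left, red) and the 3 WT livers (right, blue); the number beside a point is the library and the black line the group mean. G2A liver 2 is the highest point in all 9 panels, and G2A liver 3 is the lowest of 6 for Krt7, Cldn6, Cldn7 and Epcam.

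Among the keratins, Krt8, the main type II keratin of hepatoblasts, stood at 87.4, 155 and 61.4 FPKM in G2A livers 1 to 3, against 47.5, 49.8 and 60.4 FPKM in WT livers. The lowest G2A liver and the highest WT liver were almost level. The log2 fold change was 0.84 (SE 0.321, limma adjusted p = 0.207). Its type I partner Krt18 stood at 94.8, 147 and 69.7 FPKM in G2A livers, against 64.8, 63.1 and 63.5 FPKM in WT livers. All G2A livers lay above a tight WT group (log2 fold change 0.63, SE 0.252, limma adjusted p = 0.222). The ratio of Krt8 to Krt18 was 0.923, 1.05 and 0.882 in G2A livers and 0.734, 0.789 and 0.951 in WT livers, so the partners' ratios overlapped between genotypes.

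Krt8 carries a limit of its own. Of the 1805 bases of its transcript, 1733 matched a second place in NCBIM37 (chr7:24142113-24143830, plus strand, 1734 aligned bases at 97.924% identity) that lies within the annotated gene Nlrp4e. Reads were trimmed to 50 bases, and 54.5% of the 1756 stretches of 50 bases in Krt8 were identical there, so its level is uncertain where reads could be split. Its rank below Krt18 and its ratio to Krt18 carry the same limit. Krt18, Krt19 and the claudins had no such match, nor did Epcam, and in Krt7 6.0% of the transcript matched repeats.

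Krt19, a type I keratin of bile duct and mesothelium, stood at 29.9, 48.4 and 12.8 FPKM in G2A livers, against 12.53, 9.005 and 11.91 FPKM in WT livers. G2A livers 1 and 2 were far above WT, and G2A liver 3 was only just above the highest WT liver. The log2 fold change was 1.196 (SE 0.445, limma adjusted p = 0.198), the largest of the 4 keratins. Krt7, a type II keratin of ducts, stood at 20.1, 30.2 and 8.76 FPKM in G2A livers, against 13.8, 10.4 and 10.5 FPKM in WT livers. The groups overlapped, because G2A liver 3 lay below all WT livers (log2 fold change 0.58, SE 0.409, adjusted p = 0.445).

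Among the claudins, Cldn4 showed the largest fold change of the 9 genes. It stood at 10.8, 23.3 and 4.63 FPKM in G2A livers, against 2.99, 1.59 and 3.07 FPKM in WT livers, with every G2A liver above every WT liver (log2 fold change 1.76, SE 0.519, 95% interval 0.50 to 3.01, limma adjusted p = 0.144). Its neighbour Cldn3, like Cldn4 a barrier claudin of many simple epithelia, stood at 6.47, 19.8 and 3.46 FPKM in G2A livers, against 2.88, 1.61 and 2.68 FPKM in WT livers. Here too the groups did not overlap, and the G2A livers differed more among themselves than the WT livers did (log2 fold change 1.41, SE 0.545, limma adjusted p = 0.211). Both fold changes are on log2(FPKM + 1), which understates the change of low genes.

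Cldn6, a claudin of embryonic epithelia, stood at 18.2, 37.4 and 4.17 FPKM in G2A livers, against 15.6, 8.17 and 9.84 FPKM in WT livers. The G2A livers spanned the whole WT range and passed it on both sides (log2 fold change 0.40, SE 0.709, 95% interval -1.31 to 2.12). Cldn7, the claudin that associates with Epcam, stood at 9.64, 13.7 and 3.10 FPKM in G2A livers, against 7.30, 3.84 and 5.87 FPKM in WT livers. It showed the same order of libraries, with G2A liver 3 lowest (log2 fold change 0.41, SE 0.482, 95% interval -0.76 to 1.57). Epcam stood at 15.3, 29.3 and 4.39 FPKM in G2A livers, against 14.6, 8.64 and 11.6 FPKM in WT livers. G2A liver 2 lay well above the WT livers, G2A liver 1 just above the highest of them and G2A liver 3 below the lowest (log2 fold change 0.16, SE 0.605, 95% interval -1.30 to 1.63).

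Ratios between members show where the G2A livers agreed. The ratio of Cldn4 to Epcam was 0.711, 0.795 and 1.05 in G2A livers and 0.204, 0.184 and 0.265 in WT livers, without overlap, and it was highest in G2A liver 3. By contrast, Cldn6 over Epcam was 1.19, 1.28 and 0.950 in G2A livers and 1.07, 0.945 and 0.851 in WT livers, with overlap. These ratios were chosen after the values were seen and are descriptions.

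Leaving out G2A liver 3 changed the calls. This library was singled out because these same genes lay near WT in it. Dropping it raises their fold changes by that choice, so the calls are descriptions and give no support. Of the 9 genes, 7 then passed limma's threshold, all higher in G2A, where the background was 12.3% higher and 12.2% lower of 12795 genes. Cldn4 reached a log2 fold change of 2.29 (adjusted p = 0.0135) and Krt19 one of 1.70 (adjusted p = 0.0114), against ranges of 0.00519 to 0.367 and 0.0048 to 0.433 over all alternatives. Krt18 (0.88), Krt8 (1.14), Krt7 (1.04), Cldn3 (1.90) and Cldn7 (0.94) passed as well. Cldn6 (adjusted p = 0.0568) and Epcam (adjusted p = 0.0925) did not. With G2A liver 2 left out instead, Cldn6 and Epcam turned to -0.24 and -0.40, and no member passed. Weighting libraries by their spread gave G2A liver 3 the lowest weight (0.176) and G2A liver 1 the highest (6.22). In that fit 7 of the 9 genes were again called, where 26.1% of all genes were called higher and 20.7% lower.

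**Figure D2:**
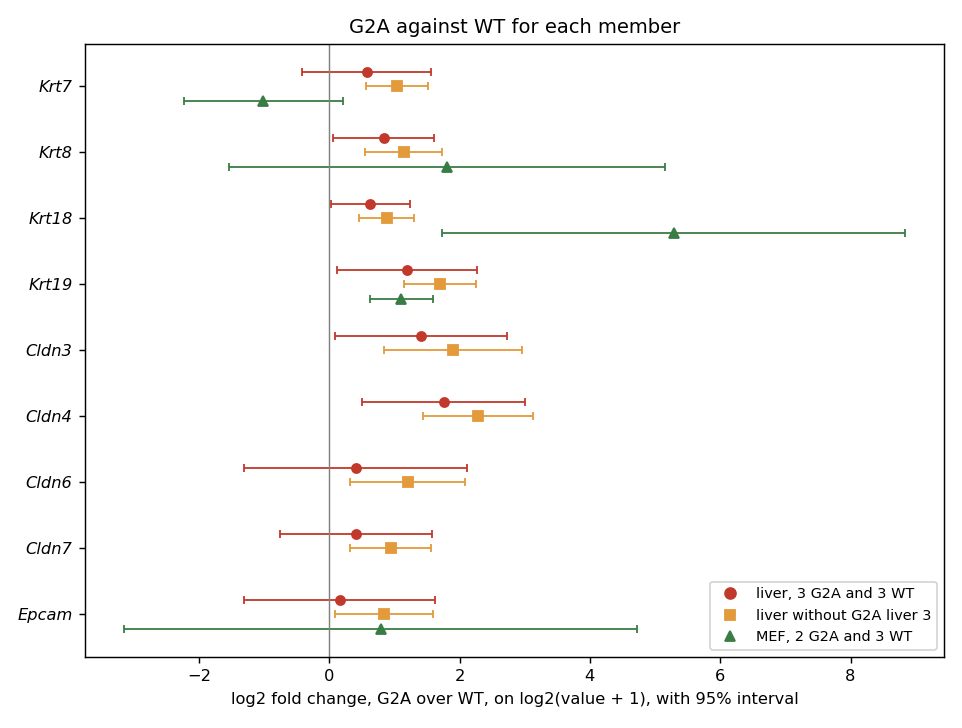
Log2 fold change of G2A over WT (x axis, on log2(value + 1)) with its 95% interval for the 9 genes (y axis), in liver with all libraries (red circles), in liver without G2A liver 3 (orange squares) and in MEFs (green triangles; 5 genes tested). All 9 liver values lie above 0, intervals are narrower without G2A liver 3, and Krt7 lies above 0 in liver (0.58) but below it in MEFs (-1.01).

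Bulk liver RNA cannot tell more cells of a type from more RNA per cell. Markers of other epithelia were therefore measured beside the 9 genes, and their part in the result was not tested. Of 13 genes of stratified epithelium, the multilayered type found in skin, 4 passed the filter on low values. Of these 4, Krt5, Krt10 and Krt14 had at most 1 WT liver at the minimum of 1 FPKM and so passed it through the G2A livers, which favours values above WT in a count over them. The 13 summed to 33.9, 51.3 and 16.4 FPKM in G2A livers and 5.62, 3.44 and 7.36 FPKM in WT livers. Krt5 and Sfn carried most of this sum in the G2A livers. Krt5, the keratin of basal epidermal cells, stood at 13.8, 26.0 and 8.03 FPKM in G2A livers and 0.118, 0.0860 and 2.04 FPKM in WT livers (log2 fold change 3.31, limma adjusted p = 0.0902). Sfn (stratifin), an epithelial adaptor protein, stood at 12.46, 18.0 and 4.32 FPKM in G2A livers and 1.66, 1.17 and 2.14 FPKM in WT livers (2.08, adjusted p = 0.107). Krt6a, Krt6b and Krt16 were listed at 0 in every liver. The order of G2A livers (2, then 1, then 3) was that of the 9 genes. For Krt5 and Sfn G2A liver 3 stayed above every WT liver, as it did for Krt8, Krt18, Krt19, Cldn3 and Cldn4.

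Junction partners followed a similar order. Of 14 adherens junction and desmosome genes, 13 were tested and 0 passed limma's threshold. Of the 5 with an unadjusted p under 0.05, Ppl, Evpl and Pkp3 had no WT liver at 1 FPKM and passed the filter only through the G2A livers where they were high, while Dsp and Dsc2 passed it in all 6 libraries. Ppl (periplakin), a plakin that links keratin filaments to desmosomes, stood at 3.67, 8.56 and 2.12 FPKM in G2A livers and 0.299, 0.244 and 0.554 FPKM in WT livers (1.93, adjusted p = 0.0998). Dsc2, a desmosomal cadherin, had a log2 fold change of 0.77 (adjusted p = 0.107). Dsp (desmoplakin), which anchors keratins at desmosomes, stood at 9.56, 13.7 and 6.70 FPKM in G2A livers and 4.74, 4.99 and 5.15 FPKM in WT livers. Cdh1 (E-cadherin) averaged 18.3 ± 6.25 FPKM in G2A livers and 12.1 ± 1.19 in WT livers (SD, n = 3 each). Dsp and Cdh1 were chosen for naming here after their values were seen.

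Of 19 symbols listed as tight junction partners, 17 were found among the liver entries. Of these, 14 were tested, 0 passed the threshold, 2 passed at an unadjusted p under 0.05 and all 14 lay above 0 (median 0.31). Of all liver genes tested, 52.7% lay above 0. Pard6b, a cell polarity protein, had 0.65 and Tjp1 (ZO-1), the scaffold under claudins, 0.40 (adjusted p = 0.204 and 0.213). Other claudins behaved differently: of 20, 6 were tested, 3 lay above 0 and 3 below (median -0.02). Cldn13, the most abundant of them, stood at 84.2, 87.2 and 146 FPKM in G2A livers and 156, 140 and 168 FPKM in WT livers (-0.59, adjusted p = 0.192). Cldn25 had a log2 fold change of 0.12 (adjusted p = 0.314). Of the 8 other simple keratins and keratin linkers, 4 were tested with 2 above and 2 below 0. Krt20, a type I keratin of gut epithelium, was below WT in every G2A liver, at 8.76, 9.33 and 9.65 FPKM against 11.9, 15.2 and 16.9 FPKM in WT livers (-0.60, adjusted p = 0.104), and the keratin-associated Fam83h had 0.60 (adjusted p = 0.167).

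Among 12 genes tied to Epcam, all were tested, 0 passed the threshold and 4 were higher and 1 lower at an unadjusted p under 0.05. Tspan8, a tetraspanin, was below WT in every G2A liver (-0.79, adjusted p = 0.0977). Of 16 epithelial regulators 10 were tested and all 10 lay above 0 (median 0.50), against 52.7% of all genes tested. Of these 10, 0 passed the threshold and 3 had an unadjusted p under 0.05. Grhl3, a grainyhead-like transcription factor of surface epithelium, stood at 8.84, 16.7 and 3.79 FPKM in G2A livers and 1.001, 0.862 and 1.73 FPKM in WT livers (2.12, adjusted p = 0.107), and Klf4 had 0.68 (adjusted p = 0.146). Of the 9 mesenchymal transition factors, which include repressors of epithelial genes, all lay above 0 as well (median 0.43). Fn1 had a log2 fold change of 0.71 (adjusted p = 0.0902) and Twist2 of 1.62 (adjusted p = 0.114).

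**Figure D3:**
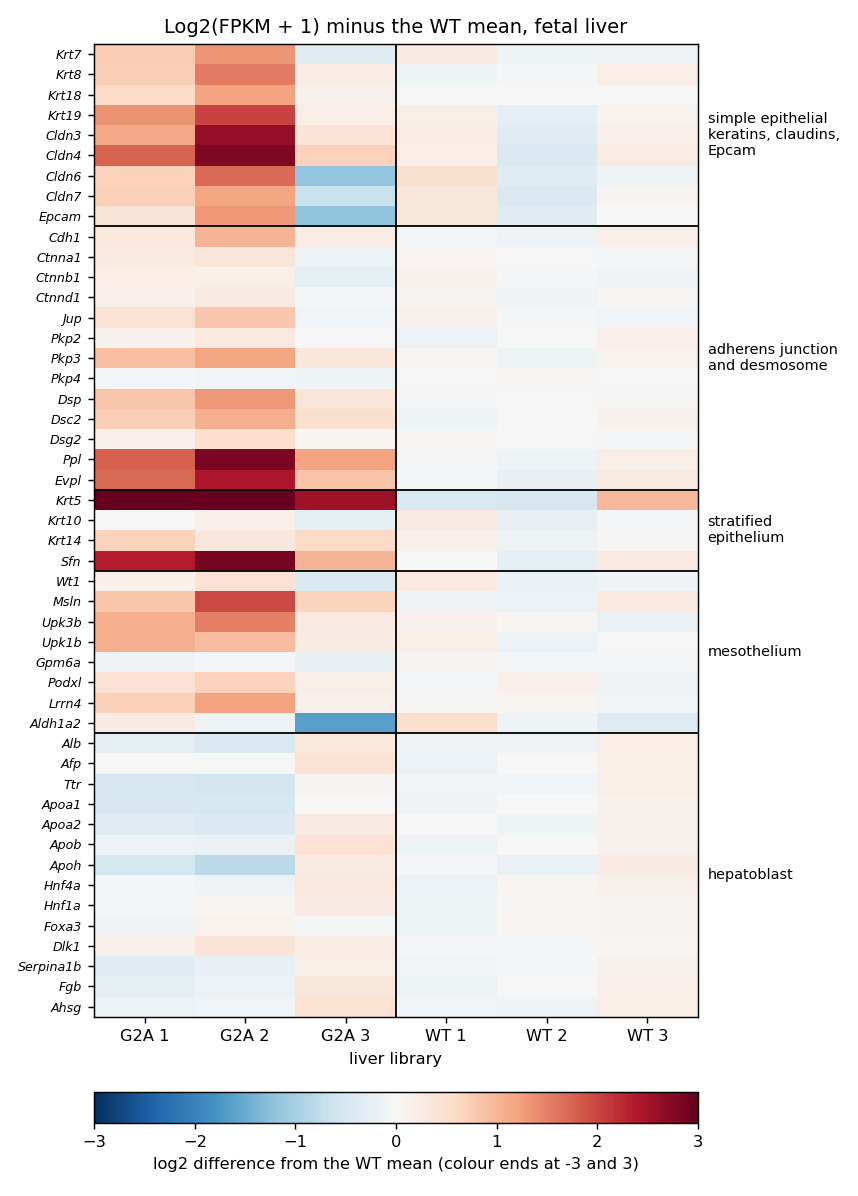
Log2(FPKM + 1) minus the WT mean (colour, red above and blue below WT, ending at -3 and 3) for the genes tested in 5 groups (rows) in each liver library (columns, G2A left of WT). Krt5, Sfn, Ppl and Evpl are red in all 3 G2A livers, while Krt7, Cldn6, Cldn7 and Epcam are red in G2A livers 1 and 2 and blue in G2A liver 3.

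Markers of other cell types also differed in level between livers. The 14 hepatoblast markers showed no common shift (median log2 fold change -0.04, 6 above and 8 below 0), with Dlk1 at 0.25 and Apoa1 at -0.35. Of 8 bile duct and biliary progenitor markers, 6 were tested, 3 above and 3 below 0, with sums of 46.6 to 60.9 FPKM in G2A livers and 47.3 to 61.3 FPKM in WT livers. Spp1 (osteopontin) had -0.996 (adjusted p = 0.156), on the other side of 0 from Krt7 and Krt19. Mesothelial markers summed to 162, 188 and 96.5 FPKM in G2A livers and 124, 108 and 94.2 FPKM in WT livers, with 6 of 8 above 0. Upk1b had a log2 fold change of 0.76 (adjusted p = 0.151) and Msln, which passed the filter through G2A livers alone, of 1.16 (adjusted p = 0.153).

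Fibroblast markers summed to 1569, 2300 and 1094 FPKM in G2A livers and 665, 467 and 711 FPKM in WT livers. Of these 11 markers, 10 lay above 0 (median 1.12), with Lum at 1.61 and Postn at 2.36 (adjusted p = 0.0902 for both). Endothelial markers had a median of 0.25 (Kdr 0.46, adjusted p = 0.0914, and Tek 0.25). Erythroid markers summed to 54000, 69420 and 25450 FPKM in G2A livers and 18230, 28860 and 17590 FPKM in WT livers. Embryonic globins carried most of this sum, with Hbb-y at 27963, 37646 and 14088 FPKM in G2A livers and 9255, 15060 and 9121 FPKM in WT livers (1.18, adjusted p = 0.17) and Hba-x at a log2 fold change of 1.42 (adjusted p = 0.2). By contrast 7 of 10 erythroid markers lay below 0 (Epor -0.48, adjusted p = 0.107, and Klf1 -0.69). Hbb-y and Hba-x were chosen for naming after their values were seen. Of 9 trophoblast markers 2 were tested, Hand1 (1.96, adjusted p = 0.134) and Gata3 (0.61, adjusted p = 0.195). Foregut and pancreas markers summed to 5.65, 8.13 and 1.88 FPKM in G2A livers and 17.4, 10.7 and 13.9 FPKM in WT livers, with Cpa1, which passed the filter through WT livers alone, at -1.87 (adjusted p = 0.0811). Of 7 pluripotency markers 2 were tested (Sox2 -1.005, Lin28a 0.01). In none of these lists did a gene pass limma's threshold with all libraries.

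The second comparison asked the same of immortalized MEFs. Their fibroblast markers were abundant, with sums of 304500 and 299400 normalized reads in G2A MEFs and 816800, 599900 and 524100 in WT MEFs. Of the 9 genes 5 passed the filter of at least 10 normalized reads in at least 2 libraries, and limma called 0 of them, where the background was 0% in both directions (0 of 13241 genes; 6.9% higher and 7.48% lower at an unadjusted p under 0.05). At an unadjusted p under 0.05 2 of the 5 passed, Krt18 and Krt19. edgeR on the whole reads also called 0 of 13241 genes, while DESeq2 called 391 higher (2.95%) and 644 lower (4.86%). Groups did not overlap for 4 of the 5, with 3 higher in G2A (background 18.9%) and 1 lower (background 18%). Of the 3 higher, Krt8 and Krt18 had 1 WT library at the minimum and passed the filter through the G2A MEFs, so the counts of genes higher in G2A give no support.

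Krt19 had the highest level of the 9 genes in MEFs. It stood at 3439 and 3335 normalized reads in G2A MEFs, against 1310, 1953 and 1515 in WT MEFs. Both G2A libraries were close to each other and above all WT libraries (log2 fold change 1.11, SE 0.189, 95% interval 0.63 to 1.59, limma adjusted p = 0.269). DESeq2 gave 1.09 with an adjusted p of 0.000132, edgeR 1.09 with 0.301, and the range over all alternatives was 0.000132 to 0.986. Per kilobase of transcript this was 2149 normalized reads in G2A MEFs and 1011 in WT MEFs. Krt18 had 133 in G2A MEFs, second to Krt19 there, and 6.79 in WT MEFs, where Krt7 (23.1) and Cldn7 (7.81) stood above it.

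Krt18 stood at 169 and 204 normalized reads in G2A MEFs, against 0, 3.13 and 25.4 in WT MEFs. These were 171 and 208 whole reads in G2A libraries and 0, 3 and 27 in WT libraries. The groups were far apart, but the WT libraries also differed widely among themselves (limma log2 fold change 5.29, SE 1.411, adjusted p = 0.279). edgeR gave 4.26 with an adjusted p of 0.332 and DESeq2 4.28 with 0.0615. Leaving out WT MEF 3 took Epcam below the filter. Of the rest, limma called Krt18 (6.52, adjusted p = 0.00419) and Krt19 (1.08, adjusted p = 0.0158). The background there was 11.9% higher and 11.8% lower of 12963 genes. Krt18 then stood at 0 and 3.13 normalized reads in WT MEFs. It passed the filter through the G2A MEFs alone, so its call gives no support. Of the libraries left out in MEFs, WT MEF 3 gave the most calls. Krt19 was not called without WT MEF 1 or without WT MEF 2 (limma adjusted p = 0.657 and 0.288). The Krt19 call therefore gives no support either. The range of adjusted p for Krt18 over all alternatives was 0.000378 to 0.986.

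Krt8, the partner of Krt18, stayed low in both genotypes. It stood at 18.7 and 15.7 normalized reads in G2A MEFs, against 9.27, 12.53 and 0 in WT MEFs, and the second genomic copy limits it here too (log2 fold change 1.81, SE 1.328, adjusted p = 0.55). Krt7 was the 1 gene of the 5 below WT, at 62.1 and 32.4 normalized reads in G2A MEFs, against 110, 111 and 63.0 in WT MEFs. The higher G2A library and the lowest WT library were almost level (-1.01, SE 0.484, adjusted p = 0.402). Epcam stood at 17.8 and 3.92 normalized reads in G2A MEFs, against 0, 6.26 and 22.6 in WT MEFs, with overlap (0.79, SE 1.562, adjusted p = 0.833). Its value depended on the fit, at 0.09 after quantile normalization and 2.79 with library weights. The weighted fit called 4 of the 5 genes, Krt18 (7.16), Krt19 (1.30) and Epcam (adjusted p = 0.0469) higher and Krt7 (-1.25) lower, where 23.8% of all genes were called higher and 22.5% lower. The adjusted p of Epcam ranged from 0.0469 to 0.977 over all alternatives.

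All 4 claudins were below the filter in MEFs and were not tested. Cldn6 had 0 reads in all 5 libraries, which allows up to 3 reads per library (2.82 to 3.13 normalized reads). Cldn3 had 2 and 0 reads in G2A MEFs and 2, 0 and 0 in WT MEFs. Cldn4 had 2 and 0 reads in G2A MEFs and 0 in each WT MEF. Cldn7 had 11 and 9 reads in G2A MEFs and 9, 8 and 4 in WT MEFs, above the floor of 3 reads in every library. Some MEF libraries also held reads of Alb, the liver secretory gene: 279 and 0 in G2A MEFs and 296, 316 and 0 in WT MEFs. Krt18 was high in both G2A MEFs, 1 with and 1 without Alb reads. The source of the Alb reads, and any link to Krt18, was not tested.

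**Figure D4:**
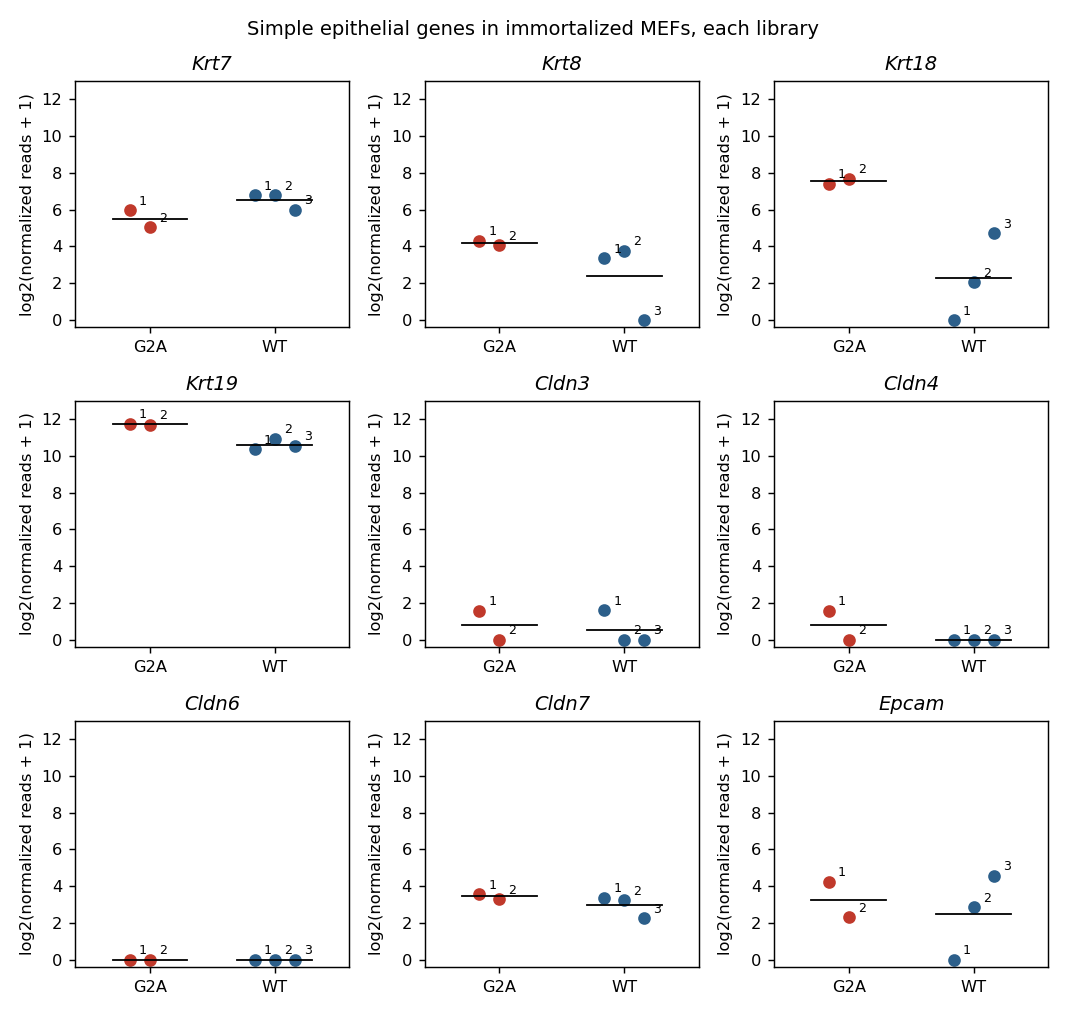
Level of each gene as log2(normalized reads + 1) (y axis, the same in all panels) in the 2 G2A MEF libraries (left, red) and the 3 WT MEF libraries (right, blue); numbers beside points name the library and black lines are group means. Krt19 is high in all 5 libraries, Krt18 is high in both G2A libraries and scattered in WT, and Cldn3, Cldn4 and Cldn6 lie at or near 0.

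Related genes in MEFs showed few shared directions, where 51.6% of all MEF genes tested lay above 0. Of 20 other claudins 6 were tested, 2 above and 4 below 0. Cldn19 stood at 3.94 and 1.96 normalized reads in G2A MEFs, against 281, 85.6 and 55.4 in WT MEFs (-4.86, limma adjusted p = 0.269; it passed the filter through WT MEFs alone), and Cldn12 had 0.76 (adjusted p = 0.314). Krt80, a type II keratin, stood at 857 and 584 normalized reads in G2A MEFs, against 162, 266 and 257 in WT MEFs (1.66, adjusted p = 0.269), and Eppk1 (epiplakin), which binds keratins, had 0.91 (adjusted p = 0.418). Krt13 stood at 47.3 and 83.3 in G2A MEFs and 12.4, 15.7 and 12.2 in WT MEFs (2.15, adjusted p = 0.269), while Sfn had -0.72 (adjusted p = 0.363).

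Of the 19 symbols listed as tight junction partners, 17 were found among the MEF entries and 12 were tested. Of these 12, 8 lay above and 4 below 0, with Pard6b at 0.89 (adjusted p = 0.271). Of 14 adherens junction and desmosome genes 11 were tested, 4 above and 7 below 0. Cdh1 stood at 15.8 and 15.7 normalized reads in G2A MEFs, against 42.2, 43.8 and 172 in WT MEFs (-2.05, adjusted p = 0.329), and Ctnnd1 (p120 catenin) had -0.62 (adjusted p = 0.353). Among 16 epithelial regulators 5 were tested, 1 above and 4 below 0, and Esrp2, a splicing regulator that passed the filter through G2A MEFs, was the 1 above at 2.81 (adjusted p = 0.342). Genes tied to Epcam had a median of 0.11 (9 of 12 tested; Adam17 0.24, Spint2 -0.67). Of the 9 mesenchymal transition factors 2 lay above and 7 below 0, with Snai2 at -0.78 (adjusted p = 0.269) and Fn1 at -1.06 (adjusted p = 0.357).

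Cell type markers in MEFs were mixed. Of 11 fibroblast markers 10 were tested, with 5 below WT at an unadjusted p under 0.05, Col3a1 at -2.24 and Prrx1 at -0.89 (adjusted p = 0.269 for both). Of 9 mesothelial markers 3 were tested. Msln stood at 14921 and 10856 normalized reads in G2A MEFs, against 1402, 2455 and 5639 in WT MEFs (2.24, adjusted p = 0.277), while Upk3b had -2.58 (adjusted p = 0.303). Bile duct markers lay 4 above and 2 below 0, with Tm4sf4 at 3.14 (adjusted p = 0.269) and Spp1 at 2.79 (adjusted p = 0.298). Hepatoblast markers lay 4 above and 6 below 0 (Apob 2.93, Dlk1 1.81), endothelial ones 1 above and 3 below (Cdh5 3.07, Stab2 -1.52) and erythroid ones 2 above (Epor 1.55, Alas2 0.37). The single gene tested for foregut and for pluripotency was Sox2 (-3.98), and for trophoblast Gata3 (0.13). Of the genes named here, Tm4sf4 and Cdh5 passed the filter through G2A MEFs and Upk3b, Stab2 and Sox2 through WT MEFs, as did the 6 hepatoblast markers below 0. No gene of these lists passed limma's threshold.

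The third comparison asked whether the G2A effect differed between liver and MEFs, over the 5 genes tested in both. By the difference of log2 fold changes, liver minus MEF, limma's threshold was passed by 0 of the 5, where the background was 1.34% higher and 0.869% lower in liver of 10818 genes. At an unadjusted p under 0.05, where the background was 23.6%, 2 of the 5 passed: Krt7 (1.59, SE 0.634, adjusted p = 0.162) and Krt18 (-4.66, SE 1.433, adjusted p = 0.132). Krt19 differed by 0.09 (95% interval -1.02 to 1.19, adjusted p = 0.93). Krt8 differed by -0.97 (adjusted p = 0.701) and Epcam by -0.63 (adjusted p = 0.851). Without WT MEF 3 both Krt7 (1.86, adjusted p = 0.0272) and Krt18 (-5.89, adjusted p = 0.00243) passed. The background there was 14.8% of genes higher and 15.6% lower in liver. Krt18 passed the MEF filter through the G2A MEFs, so its call gives no support. For Krt7, WT MEF 3 (63.0 normalized reads) lay nearest the G2A MEFs, against 110 and 111 in the other WT MEFs. Dropping WT MEF 3 raises the Krt7 difference by that choice, so the Krt7 call gives no support either. The liver fold changes are on FPKM and the MEF ones on normalized reads. With all libraries, a pseudocount of 0.1 moved the Krt18 difference from -4.66 to -5.89. Over all alternatives the adjusted p ranged from 0.0272 to 0.613 for Krt7 and from 0.00243 to 0.584 for Krt18.

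Across the 6 liver libraries, the genes most like Krt8 by Pearson r of log2(FPKM + 1) were Slc39a7 (0.9962), Sh3bgrl2 (0.9943) and Copg (0.9915), and 3 genes in all exceeded 0.99. Slc39a7, a zinc transporter of the endoplasmic reticulum and Golgi, stood at 69.1, 75.5 and 65.6 FPKM in G2A livers and 62.5, 62.2 and 64.8 FPKM in WT livers, a much smaller range than that of Krt8. The genes most like Epcam were Zfp746 (0.9978), Aldh7a1 (0.9967) and BC051226 (0.9966), and 7 genes exceeded 0.99. Aldh7a1, an aldehyde dehydrogenase, stood at 35.3, 36.9 and 31.9 FPKM in G2A livers and 34.8, 33.7 and 34.3 FPKM in WT livers. None of the 9 genes was among the 3 most like Krt8 or Epcam. These values describe 6 libraries that share the order of the G2A livers.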

How the data were processed

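Total RNA was sequenced, and per the labels' protocols reads were trimmed to 50 bp and aligned to mm9 with TopHat 2.1.1. The submitters' processing notes also list Cufflinks 2.2.1 and mm10. The authors deposited liver values without a named unit, and FPKM was read from that tool and the values. The deposited MEF values are a normalized signal: after rescaling, 100% were whole reads within 0.01, divided by 1 size factor per library. The sources used here name no annotation, counting tool or strand setting.

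From these values, log2(value + 1) was fitted on genotype within each tissue with limma 3.58.1 (variance trend) in R 4.3.3. Benjamini-Hochberg adjustment ran over 12938 liver genes (3 or more libraries with an FPKM of 1 or more) and 13241 MEF genes (at least 10 normalized reads in at least 2 libraries), with a threshold of 0.05. For 10818 genes tested in both tissues, the difference of the log2 fold changes was divided by its standard error (Satterthwaite degrees of freedom). edgeR 4.0.16 and DESeq2 1.42.0 were run on the whole MEF reads as alternatives. Other alternatives were a replicate block, library weights, no filter or a stricter one, a pseudocount of 0.1, 2 other scalings and each library left out. The scripts were tested on simulated data.

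All 9 genes are named with every library's value. From each of 17 lists of related and marker genes, the genes past the threshold are named, or the 2 with the smallest p. Some genes that this rule selects are not reported here. Cdh1, Sox2 and Cdx2 each stand in 2 lists, and Cdh1 is counted in both junction genes and epithelial regulators. The genes and lists were chosen with earlier results of these data known, so no list is independent support. Transcripts were aligned to NCBIM37 with BLAST 2.17.0, counting matches of at least 50 bases and 96% identity. The 95% intervals are from the fits. G2A MEF 3 was not analysed here.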

Additional observations from a re-analysis of the deposited data

How the results depend on the processing

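The calls depended on single libraries in both tissues. In liver, limma called 2 genes higher and 1 lower. With 1 library left out these counts ranged from 0 to 1578 higher and from 0 to 1562 lower, both largest without G2A liver 3. Library weights gave 3376 higher and 2681 lower. In MEFs limma called 0 either way. Leaving out 1 library gave 0 to 1544 higher and 0 to 1532 lower, both largest without WT MEF 3. Library weights gave 3149 and 2975 there, and DESeq2 gave 391 and 644. For the difference between tissues, 145 genes were higher and 94 lower in liver, with 2 to 1586 and 0 to 1676 when 1 library was left out. The cause was not tested.

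Whether the replicate numbers pair the samples could not be settled. Deviations of same-numbered libraries correlated at 0.182, -0.099 and 0.099 in liver and at 0.126 and -0.033 in MEFs. Liver libraries of unlike number ranged from -0.22 to 0.133. Centring on such small groups ties the deviations together, and those of the G2A MEFs mirror each other, so these values cannot decide. With the replicate number as a block, limma called 1 gene higher in liver and 1 lower, and 1891 higher and 1816 lower in MEFs, where the block leaves WT MEF 3 without weight. Under the block Krt7 (-1.28), Krt18 (6.52) and Krt19 (1.08) passed in MEFs, and no liver member did. These MEF fold changes equal those without WT MEF 3, so the calls are no further result and give no support. Krt18 also passed the filter through the G2A MEFs.

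The sign of a log2 fold change turned in the following genes, each time when 1 library was left out. In liver Epcam ranged from -0.40 (without G2A liver 2) to 0.84, with -0.02 when WT liver 2 was dropped, and Cldn6 from -0.24 (without G2A liver 2) to 1.20. In MEFs Epcam ranged from -0.45 (without WT MEF 1) to 1.76. For the difference between tissues, Krt19 ranged from -0.33 (without G2A liver 2) to 0.59, with -0.04 when WT liver 2 and -0.07 when WT MEF 2 was dropped. There Epcam ranged from -1.59 to 0.61 (without WT MEF 1), with 0.05 when G2A liver 3 was dropped, and Krt8 from -1.67 to 0.21 (without WT MEF 3). For the 5 liver genes whose groups did not overlap, the sign stayed positive in every alternative run. Leaving out a library cannot turn the sign where groups do not overlap, so this gives no support. Krt7 and Cldn7, whose liver groups overlapped, also stayed positive, with lowest log2 fold changes of 0.20 and 0.02. Depth limits the MEF claudins and Krt8, which rest on 0 to 19 reads, and Cldn3 in liver.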
